A study of Homo sapiens with 6 samples.

Results

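The comparison was between the Ago2-IP RNA of Hep G2 cells transfected with dsRNA mimicking *miR-497* and the Ago2-IP RNA of non-transfected Hep G2 cells. Hep G2 is a cell line from a human liver tumor. Ago2-IP RNA is the RNA that came down with an antibody to Ago2, and each condition also had a total RNA library. The mimic was used at 5 nM and cells were collected at 24 hours, while the non-transfected cells are labelled 0 hours and received neither a mimic nor a control dsRNA, so the mimic, the transfection and the time in culture cannot be told apart. The other condition, the *miR-195* mimic at the same dose and time, is given only beside the *miR-497* values. Each condition had 1 Ago2-IP library and 1 total RNA library, so no difference below could be tested, and no replicate error exists. The values are RPKM, read numbers scaled to the length of the gene and to the mapped reads of the library, and fewer cells cannot be told apart from less RNA per cell in such bulk samples. Of 21863 gene symbols, 13866 had an RPKM above 0 in both Ago2-IP libraries and made up the comparison, and 9860 of these reached an RPKM of 1 in at least one of the 2 libraries and were counted as single genes.

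Ago2 is the Argonaute protein that carries a miRNA and holds the mRNAs that pair with it, mostly through bases 2 to 8 of the miRNA, the seed, and mostly in the 3′UTR. GW182 proteins (*TNRC6A*, *TNRC6B* and *TNRC6C*) bind Argonaute and recruit the enzymes that remove the poly-A tail. Small nucleolar RNAs (snoRNAs) are not part of this pathway as it is usually drawn: H/ACA snoRNAs guide pseudouridylation, C/D snoRNAs guide ribose methylation, and scaRNAs do both in Cajal bodies.

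The mature sequences below, taken from RefSeq (GRCh38.p14), are shown because the seed, in capitals, is the same in both mimics and in *miR-16*, a family member that many cells make.
miR-497-5p: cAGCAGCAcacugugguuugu
miR-195-5p: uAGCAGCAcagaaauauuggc
miR-16-5p: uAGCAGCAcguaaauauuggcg

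The seed pairs with the 7 bases TGCTGCT, and with the 8 bases TGCTGCTA when an A faces the first base of the miRNA. Of the 9154 counted genes with an annotated 3′UTR, 29.5% held the 7-base match on the mRNA strand. The stretches of 30 bases below, from annotated 3′UTRs of GRCh37, carry the match in capitals. *CCNE1* (chr19:30314909-30314938, plus strand), *CDC25A* (chr3:48199754-48199783, minus strand) and *CCND1* (chr11:69468061-69468090, plus strand) are targets in the study, *TNRC6B* (chr22:40721170-40721199, plus strand) was at least 2-fold lower with the mimic, and *ACSL3* (chr2:223808961-223808990, plus strand) had a ratio of 1.46.
CCNE1: agacaccagtgcgtgctcccgaTGCTGCTA
CDC25A: ggaggcgctgtggtactggggcTGCTGCTA
CCND1: tgtgtatctctttcacattgttTGCTGCTA
TNRC6B: acctctactgtcctctgtaactTGCTGCTA
ACSL3: aacctggaataacttacttgttTGCTGCTA

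The ends of several small RNAs with ratios above 1 are shown for the boxes that define their class. In the H/ACA RNAs *SNORA49* (chr12:132515875-132515904, plus strand), *SNORA74A* (chr5:138614638-138614667, plus strand) and *SCARNA1* (chr1:28161048-28161077, plus strand), the last 30 bases of the annotated gene are given with the ACA box in capitals. In the C/D RNAs *SNORD15B* (chr11:75115465-75115494, plus strand) and *SNORD17* (chr20:17943560-17943589, minus strand), the first 30 bases are given with the C box TGATGA in capitals, and *SNORD4A* (chr17:27049600-27049629, plus strand) is a C/D RNA that was at least 2-fold lower. All are GRCh37 positions.
SNORA49: cttttggggcctacaagttgagctgACAgt
SNORA74A: ggagttgatcctagtctgggtgcaaACAat
SCARNA1: cactctgagttataactcagaggcACAact
SNORD15B: cttcagTGATGAcacgatgacgagtcagaa
SNORD17: gtgaaaTGATGAttcagtttatccattcgc
SNORD4A: ggtgcagaTGATGAcactgtaaagcgacca

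From the steps in the RPKM values, about 16800000 mapped reads were inferred for the non-transfected Ago2-IP library and 10700000 for the *miR-497* Ago2-IP library. Reads could be assigned to 13078 genes, and these held 19.1% and 16.3% of the mapped reads of the 2 libraries, against 67.0% to 69.4% in the 3 total RNA libraries. The intervals given below are exact 95% intervals of the ratio of reads and cover counting error only. The hepatocyte markers expected of Hep G2 were present: 10 of them summed to 834 RPKM in non-transfected and 831 RPKM in *miR-497* Ago2-IP, with *TTR* listed at 0 in the latter and at 0.0640 in the former, and 10 markers of other cell types summed to 0.228 and 0.322 RPKM.

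Small structural RNAs were prominent among the genes higher with the mimic, and short, G+C-rich mRNAs among those lower. With the mimic, 119 genes were at least 2-fold higher (1.21% of 9860), and 74 of them were snoRNAs, scaRNAs or other structural RNAs, which made up only 248 of the genes counted. At least 2-fold lower were 398 genes (4.04%), of which 365 were protein-coding. The structural RNAs held 13.9% of the summed RPKM in non-transfected Ago2-IP and 19.6% with the mimic. In *miR-195* Ago2-IP they held 17.3% of the summed RPKM. Reads assigned to them were only 0.199% and 0.225% of all mapped reads in non-transfected and *miR-497* Ago2-IP. These kinds of share have unlike wholes, as genes with inferred reads held only 19.1% and 16.3% of the mapped reads. RPKM also divides by length, these RNAs are short, and some, such as *RPPH1*, had no inferred reads.

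Across the 13866 genes the median log2 ratio was -0.23, with quartiles of -0.49 and 0.05, so the typical gene had a slightly lower RPKM with the mimic. With *miR-195* the median of the same genes was 0.48 against the same non-transfected library, an offset that every *miR-195* value below carries. When each ratio was divided by the median ratio, 171 genes (1.73%) were at least 2-fold higher and 193 (1.96%) at least 2-fold lower, and counts after this centring are given beside the others below. The genes nearest the limits had log2 ratios of 1.005 and 0.997 at the higher limit and -1.002 and -0.999 at the lower one. Of the called genes with inferred reads, the interval lay wholly above 1 in 73 of the higher genes and wholly below 1 in 315 of the lower ones.

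**Figure D1:**
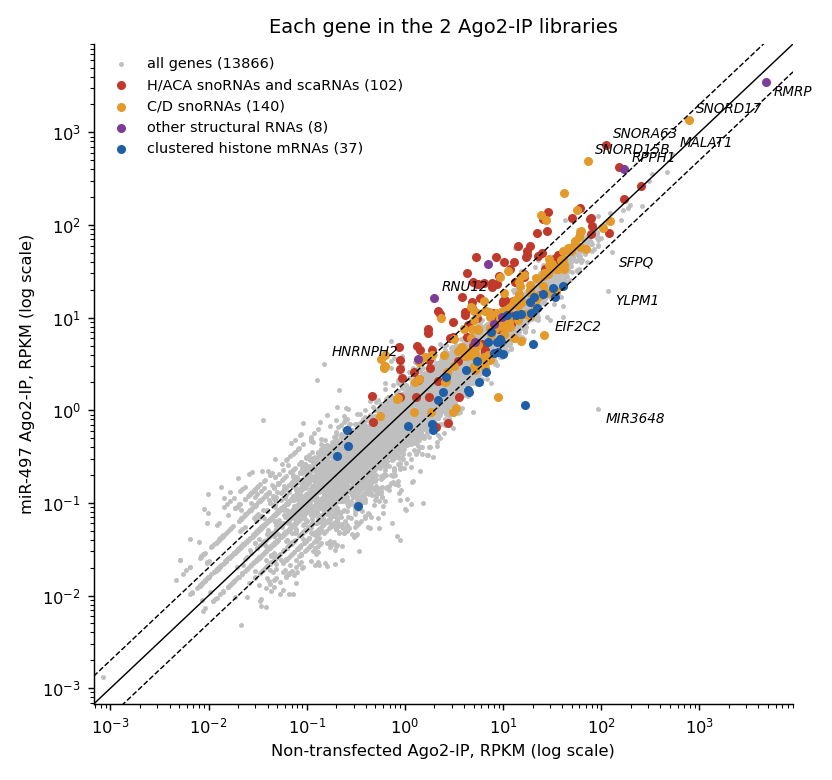
RPKM of the 13866 genes in non-transfected Ago2-IP (x axis) and *miR-497* Ago2-IP (y axis), both on log scales, with 1 point per gene and no replicates. The solid line marks equal values and the dashed lines a 2-fold difference. H/ACA snoRNAs and scaRNAs (red) lie mostly above the solid line, and clustered histone mRNAs (blue) mostly below it.

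About as many H/ACA snoRNAs and scaRNAs were at least 2-fold higher as were not. Of 124 in the deposited values, 102 were above 0 in both libraries and 101 were counted, of which 50 were at least 2-fold higher and 3 at least 2-fold lower (56 and 3 after centring). The median log2 ratio of the 102 was 0.99, with quartiles of 0.15 and 1.63, against -0.23 for all genes. Their summed RPKM was 2111 in non-transfected and 4331 in *miR-497* Ago2-IP, but 353 and 349 in the total RNA of the same conditions. The interval lay above 1 in 44 of the 92 members with inferred reads and below 1 in 0. The class is part of the larger share of structural RNAs in that library, and the part played by input or RNA quality was not tested. With *miR-195* the median log2 ratio of the same RNAs was 1.93, against 0.48 for all genes, so the gain was not particular to *miR-497*.

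*SNORA63* had the largest gain in RPKM within the class, from 112 in non-transfected to 736 with the mimic. Its reads numbered 254 and 1058, a ratio of 6.58 (interval 5.73 to 7.58), and its total RNA values were 11.4 and 9.33 RPKM. *SNORA74A* was at 151 and 428 RPKM (509 and 911 reads, interval of the ratio 2.53 to 3.16). *SNORA22* had the highest ratio of the class, at 5.32 and 45.5 RPKM on 12 and 65 reads (interval 4.58 to 17.4).

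*SNORA71A*, at 28.4 and 139 RPKM, and *SNORA49*, at 4.34 and 30.1 RPKM, also had ratios above 4. *SCARNA1*, a Cajal body RNA, was at 2.15 and 11.9 RPKM on 6 and 21 reads. Not every member was higher: *SCARNA2* was at 119 and 81.8 RPKM, and *SNORA56* had the lowest ratio, at 2.76 and 0.728 RPKM, on only 6 and 1 reads.

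The C/D snoRNAs split by their length. Of 139 counted, 20 were at least 2-fold higher and 8 at least 2-fold lower (29 and 5 after centring), with a median log2 ratio of 0.14. Among the 110 with a length under 110 bases, 12 were at least 2-fold higher and the median was 0.07, while among the 11 of 110 bases or more, 7 were at least 2-fold higher and the median was 1.49. The limit of 110 bases was chosen after the values had been seen. H/ACA RNAs and scaRNAs are nearly all longer than that: 92 of the 94 with a length reached it, and their median was 1.05. With *miR-195* the medians were -0.11 for the short and 2.47 for the long C/D RNAs.

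The long C/D RNAs were among the largest gains of all genes. *SNORD15B* (146 bases) was at 73.3 and 485 RPKM on 180 and 755 reads (interval of the ratio 5.62 to 7.84). *SNORD97* (142 bases) was at 41.8 and 221 RPKM, and *SNORD10* (148 bases) at 24.1 and 128 RPKM. *SNORD17*, the longest at 237 bases, had the highest level and gained most in RPKM among C/D RNAs, from 787 to 1358, a ratio of 1.73 (interval 1.64 to 1.81).

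Short C/D RNAs lay on both sides. *SNORD4A* (72 bases) was at 26.4 and 6.52 RPKM on 32 and 5 reads (interval 0.0751 to 0.638), and *SNORD18C* was at 8.87 and 1.40 RPKM on 10 and 1 reads, with an interval of 0.00364 to 1.11 that includes 1. Over all 215 snoRNAs and scaRNAs with a length, Spearman's rho between length and the log2 ratio was 0.41, and it was 0.20 within the C/D class and 0.03 within the H/ACA class, as a description of these 2 libraries.

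**Figure D2:**
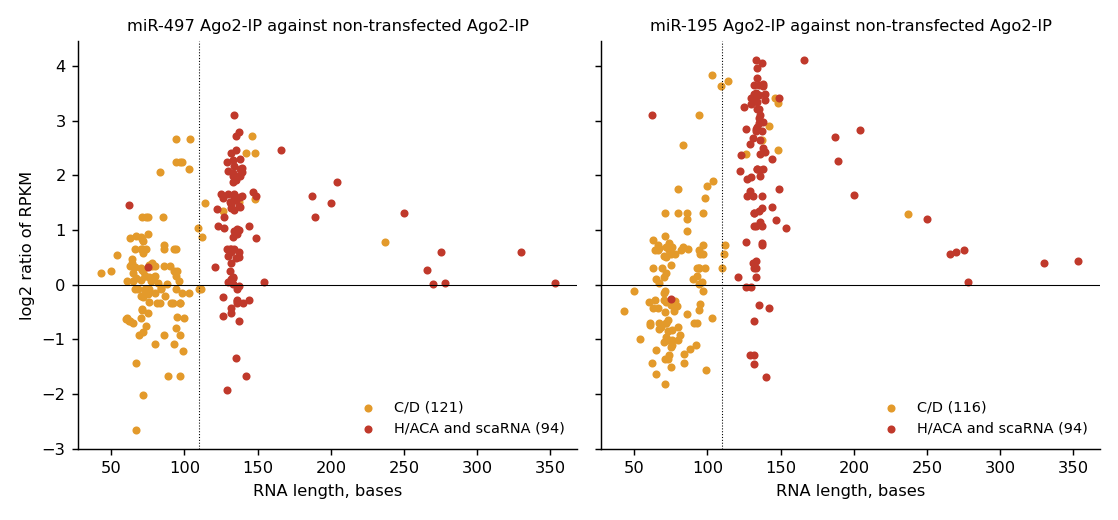
Log2 ratio of each counted snoRNA and scaRNA (y axis) against its length in bases (x axis), in *miR-497* Ago2-IP (left) and *miR-195* Ago2-IP (right), both over the same non-transfected Ago2-IP library. Orange points are C/D RNAs, red points H/ACA RNAs and scaRNAs, and the dotted line marks 110 bases, beyond which most points lie above 0 in both panels.

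Most snoRNAs are cut from introns of other genes, and none of the genes that could be paired with a higher snoRNA was itself at least 2-fold higher. *SNORD15B* lies within *RPS3*, which was at 71.0 RPKM in non-transfected and 57.9 RPKM in *miR-497* Ago2-IP. *EIF4G2*, around *SNORD97*, was at 58.2 and 47.9 RPKM, and *MATR3*, around *SNORA74A*, at 20.7 and 12.9 RPKM. For the 19 H/ACA RNAs and scaRNAs at least 2-fold higher that could be placed in a single gene on the same strand, the median log2 ratio was 1.66 for the small RNA and -0.27 for the surrounding gene. For 13 C/D RNAs in 11 genes the medians were 1.51 and -0.25. These small RNAs were picked for a ratio of at least 2, so their high medians follow from that choice. Of the 19 surrounding genes 0 were at least 2-fold higher, against 1.21% of all counted genes. Among all counted small RNAs that could be placed, 31 of 40 H/ACA RNAs and scaRNAs had a higher ratio than their surrounding gene. The same held for 39 of 56 C/D RNAs.

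Among the other structural RNAs, 8 of 15 were above 0 in both libraries, and of these 4 were at least 2-fold higher and none lower. A further 3 were above 0 only without the mimic, and none only with it. Among these 3 were *RNU5E* (3.88 RPKM on 3 reads) and *VTRNA1-2* (3.38 RPKM on 5 reads). *RNU11* and *RNU12*, RNAs of the minor spliceosome that removes a rare class of introns, were at 7.04 and 38.2 RPKM and at 1.99 and 16.4 RPKM. *RNU4ATAC*, of the same spliceosome, was at 1.37 and 3.61 RPKM on 3 and 5 reads. *RPPH1*, the RNA of the tRNA-trimming enzyme RNase P, was at 171 and 401 RPKM, and in total RNA it was at 2.49 and 34.0 RPKM. *RMRP*, the related RNA of RNase MRP and the most abundant entry of both libraries, went the other way, with 4826 and 3511 RPKM in Ago2-IP and 1.96 and 34.0 RPKM in total RNA. Its ratio of 0.73 (interval 0.710 to 0.745, 21769 and 10025 reads) was the largest loss in RPKM units. In *miR-195* Ago2-IP *RNU11*, *RNU12*, *RPPH1* and *RMRP* were at 180, 58.7, 863 and 5600 RPKM.

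*MALAT1* and *NEAT1*, longer noncoding RNAs of the nucleus, differed far less. *MALAT1* was at 527 and 585 RPKM (interval of the ratio 1.10 to 1.12) and *NEAT1* at 124 and 134.7 RPKM (1.05 to 1.13). None of the 18 lncRNAs counted differed 2-fold, and their median log2 ratio was -0.14. Over all counted genes 1.21% were at least 2-fold higher and 4.04% lower, so 0 of 18 is close to these shares.

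Only 30 protein-coding genes were at least 2-fold higher. *HNRNPH2*, an mRNA-binding protein gene, had the highest ratio of all counted genes, at 0.151 and 3.19 RPKM on 8 and 107 reads (interval 10.3 to 50.2). *TMEM107*, at 0.937 and 3.86 RPKM, holds *SNORD118* in an exon, so its reads may be those of the small RNA. Small structural RNAs lay within exons of 2 of the 30 higher genes, 0 of the 365 lower genes and 82 of the 8766 between.

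*RPLP0*, a protein of the ribosomal stalk, was at 42.8 and 114 RPKM. *IDI1*, an enzyme of the mevalonate pathway, was at 15.2 and 31.9 RPKM and *FGB*, the fibrinogen beta chain, at 1.37 and 2.86 RPKM. The RPKM of *RPLP0* can include reads that also match its processed copies elsewhere in the genome.

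Genes of sterol and fatty acid synthesis shared the position of *IDI1* in part. Of 30 counted, 1 was at least 2-fold higher and none lower (4 and 0 after centring), and the median log2 ratio of the 32 above 0 in both was 0.18, with 30 of 32 above the median of all genes. The synthase *HMGCS1* was at 21.3 and 35.6 RPKM (interval of the ratio 1.55 to 1.81) and the desaturase *SCD* at 51.9 and 67.4 RPKM (1.24 to 1.36). The same genes had a median log2 ratio of 0.54 in total RNA, with *HMGCS1* at 138 and 202 RPKM there.

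**Figure D3:**
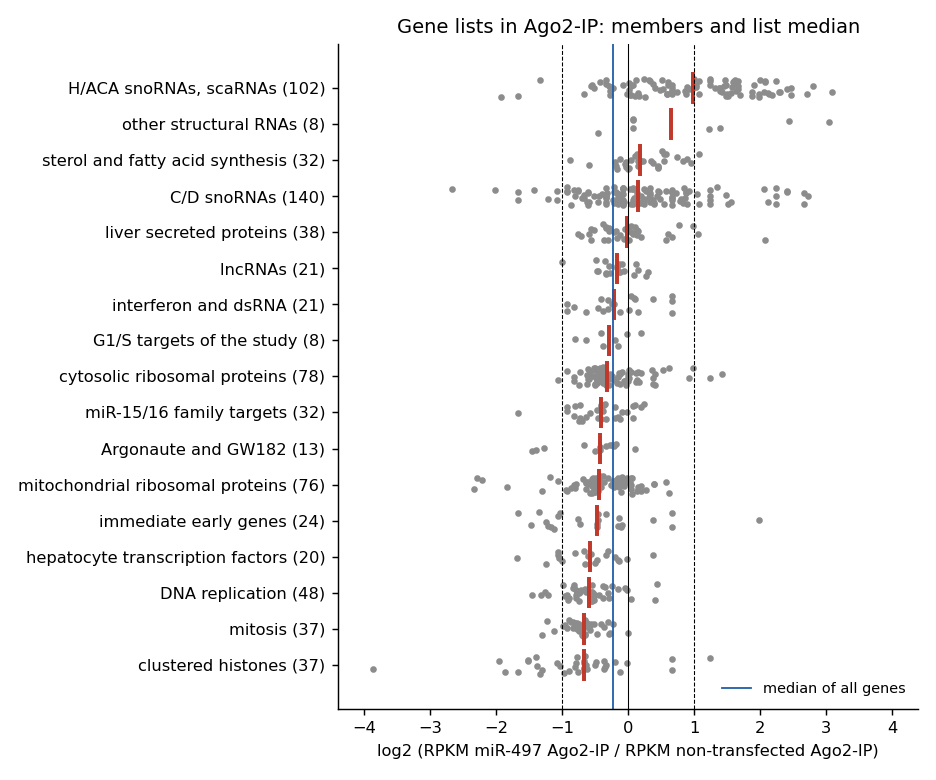
Log2 ratio of *miR-497* to non-transfected Ago2-IP (x axis) for the members of 17 gene lists (grey points, number above 0 in both libraries in brackets), with each list's median in red. The blue line is the median of all genes at -0.23 and the dashed lines mark a 2-fold difference. H/ACA RNAs and the other structural RNAs lie furthest to the right, at 0.99 and 0.65, ahead of sterol and fatty acid genes at 0.18 and C/D snoRNAs at 0.14. Clustered histones, mitosis and DNA replication genes lie furthest to the left.

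A few mRNAs of the Argonaute pathway itself were lower. Of 13 genes for Argonautes, GW182 proteins and miRNA processing, 3 were at least 2-fold lower and none higher, and the same 3 remained after centring. The lower share over all counted genes was 4.04%, and 1.96% after centring. *EIF2C2*, the gene of Ago2, was at 28.1 RPKM in non-transfected and 10.2 RPKM with the mimic (1655 and 381 reads, interval of the ratio 0.324 to 0.407). *TNRC6B* was at 9.80 and 3.73 RPKM and *TNRC6C* at 6.58 and 2.70 RPKM.

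In total RNA these 3 genes were at 8.89 and 7.42, 2.85 and 2.56, and 2.32 and 2.59 RPKM, so the differences in Ago2-IP were larger than those in total RNA. All 3 hold the 7-base seed match in a 3′UTR, as do 6 of the 10 other members. The other members were closer to the typical gene: *TNRC6A* was at 26.7 and 16.7 RPKM, the nuclease *DICER1* at 11.3 and 8.43 RPKM and *EIF2C1* at 5.59 and 4.63 RPKM. With *miR-195* the Ago2-IP values of *EIF2C2*, *TNRC6B* and *TNRC6C* were 34.2, 10.7 and 8.36 RPKM, or log2 ratios of 0.28, 0.12 and 0.35, each below the median of all genes in that library (0.48).

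The lowest ratio of all belonged to *MIR3648*, at 93.4 and 1.04 RPKM on 283 and 2 reads. This entry is named for a miRNA hairpin whose sequence lies in ribosomal RNA repeats, and it was at 5.30 RPKM with *miR-195*. Among abundant mRNAs the lowest was *YLPM1*, a nuclear protein gene, at 118 and 19.4 RPKM (interval 0.157 to 0.173), with 112 RPKM under *miR-195* and 13.4 and 13.8 RPKM in total RNA. *SFPQ*, an RNA-binding protein of nuclear paraspeckles, was at 128 and 50.6 RPKM (interval 0.374 to 0.417).

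*S100A11*, a calcium-binding protein gene, was at 41.0 and 10.3 RPKM (interval 0.190 to 0.326). *PSMC2*, an ATPase of the proteasome, was at 41.0 and 13.4 RPKM (0.281 to 0.378). Below 2 RPKM, *TMEM54*, *C13orf15* and *FAM173A* had ratios of 0.0658, 0.0831 and 0.105, but each rested on 1 read in the *miR-497* library.

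Clustered histone mRNAs, which end in a stem-loop in place of a poly-A tail, were often lower. Of 33 counted, 11 were at least 2-fold lower and none higher (9 and 0 after centring), and the median log2 ratio of the 37 above 0 in both was -0.67. Among all counted genes 4.04% were at least 2-fold lower, and 1.96% after centring. *HIST1H3D* was at 20.2 and 5.21 RPKM on 165 and 27 reads (interval 0.165 to 0.390) and *HIST1H4C* at 34.0 and 16.6 RPKM. *HIST1H2AD*, at 16.7 and 1.14 RPKM, rested on 23 and 1 reads. The histone genes are near-identical copies, so how reads were divided among them is uncertain. Their summed RPKM was 407 and 237 in Ago2-IP but 26.3 and 53.4 in total RNA, the opposite order, and 865 in *miR-195* Ago2-IP.

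Genes of cell division had more even values. All 37 mitosis genes were below their non-transfected RPKM, with a median log2 ratio of -0.67 and quartiles of -0.83 and -0.56, and 3 were at least 2-fold lower (2 after centring): *BIRC5*, which is the survivin gene (9.95 and 4.05 RPKM), the kinase gene *PLK1* (9.42 and 4.01 RPKM) and the phosphatase gene *CDC25C* (3.60 and 1.64 RPKM). For DNA replication, 45 of 48 genes were below, with a median of -0.60, and 4 of 47 counted were at least 2-fold lower (3 after centring). There *GINS1*, *GINS2* and *GINS3*, subunits of the replicative helicase, were at 16.7 and 6.99, 6.29 and 2.70, and 1.47 and 0.589 RPKM. The total RNA medians of the 2 lists were -0.50 and -0.37 over the same genes, also below 0. In *miR-195* Ago2-IP their medians were -0.44 and -0.26, against 0.48 for all genes, so the lower position was not particular to *miR-497*. Among all counted genes 4.04% were at least 2-fold lower with *miR-497*.

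Immediate early genes, which respond within minutes to growth signals, had 7 of 16 counted at least 2-fold lower and none higher (3 and 0 after centring). The lower share over all counted genes was 4.04%, and 1.96% after centring. *ZFP36*, a protein that promotes mRNA decay, was at 2.55 and 0.807 RPKM (interval 0.169 to 0.555), *EGR1* at 3.07 and 1.11 RPKM and *IER3* at 38.5 and 16.7 RPKM (0.371 to 0.503). *MYC* was at 12.9 and 9.28 RPKM and *CTGF* at 14.8 and 19.3 RPKM. *IER3* stood at 114 RPKM in *miR-195* Ago2-IP.

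Of 18 hepatocyte transcription factors counted, 6 were at least 2-fold lower and none higher (2 and 0 after centring), with a median log2 ratio of -0.58. Among all counted genes 4.04% were at least 2-fold lower, and 1.96% after centring. *CEBPB* was at 2.30 and 0.715 RPKM (interval 0.162 to 0.558) and *FOXA1* at 12.6 and 6.04 RPKM (0.405 to 0.560). The secreted liver proteins had values nearer to equal. The apolipoprotein gene *APOB* was at 309 and 299 RPKM and the alpha-fetoprotein gene *AFP* at 331 and 354 RPKM, and the median of 38 liver secreted proteins was -0.02.

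Cytosolic ribosomal protein genes and mitochondrial ones had medians of -0.32 and -0.44. Among the mitochondrial ones 7 of 75 counted (9.33%) were at least 2-fold lower (5 after centring), including *MRPL55* (2.11 and 0.416 RPKM, 32 and 4 reads) and *MRPS2* (3.79 and 1.06 RPKM). The share over all counted genes was 4.04%, and 1.96% after centring. Of 72 respiratory chain genes 5 (6.94%) were at least 2-fold lower and none higher, but after centring 1 was lower and 1 higher. The lower one, *NDUFB7*, was at 1.74 and 0.516 RPKM on 16 and 3 reads, with an interval that includes 1. *MT2A*, a metallothionein that binds zinc and copper, was at 36.6 and 17.9 RPKM (interval 0.376 to 0.632), less than 2-fold lower after centring, and at 167 RPKM with *miR-195*.

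In the remaining lists, medians over members above 0 in both libraries were -0.30 for deadenylation and decapping, -0.29 for translation factors, -0.31 for tRNA synthetases, -0.31 for the proteasome, -0.24 for chaperones, -0.43 for the unfolded protein response, -0.28 for p53 targets, -0.37 for glycolysis and hypoxia, -0.20 for zinc finger genes, -0.21 for interferon and dsRNA sensing, -0.20 for the extracellular matrix and -0.19 for metallothioneins. In these 12 lists together at least 2-fold differences were all losses, but among all protein-coding genes too 365 were lower and only 30 higher. The largest list, the zinc finger genes, had 10 of 284 counted lower (3.52%), near the 4.04% of all genes. Among the losses were *HSPB1*, a small heat shock protein gene, at 3.44 and 0.942 RPKM, and *DDIT4*, a stress-induced inhibitor of mTOR, at 9.39 and 3.86 RPKM.

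The lower protein-coding genes differed from the rest in base composition and length. The 365 genes at least 2-fold lower had a median transcript A+U content of 41.9% and a median length of 1963 bases, against 53.6% and 3504 bases for the 8766 between the 2-fold limits. When the genes were cut into 3 groups of equal size, 8.94% of those with the lowest A+U content were at least 2-fold lower, and 0.982% of those with the highest. By length the share was 7.99% in the shortest group and 1.02% in the longest. In both properties together, 13.9% of short transcripts with little A+U were at least 2-fold lower (200 of 1439), but 2.74% of long ones with as little A+U and 1.74% of short ones with much A+U.

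Over 10 groups of equal size by A+U content the median log2 ratio ran from -0.46 in the lowest to -0.15 in the highest. The same groups ran the other way in total RNA, from 0.67 to -0.26, and in *miR-195* Ago2-IP, from 1.11 to 0.09. Composition moved with the ratio in every library pair, in different directions, and its part in the results above was not tested. When the median of its A+U group was subtracted from each protein-coding gene and the median of all genes, -0.23, was added back, so that the offset between the libraries was kept, 275 genes of 9161 were at least 2-fold lower. On this scale the list medians were -0.64 for histones, -0.73 for mitosis and -0.54 for hepatocyte transcription factors.

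**Figure D4:**
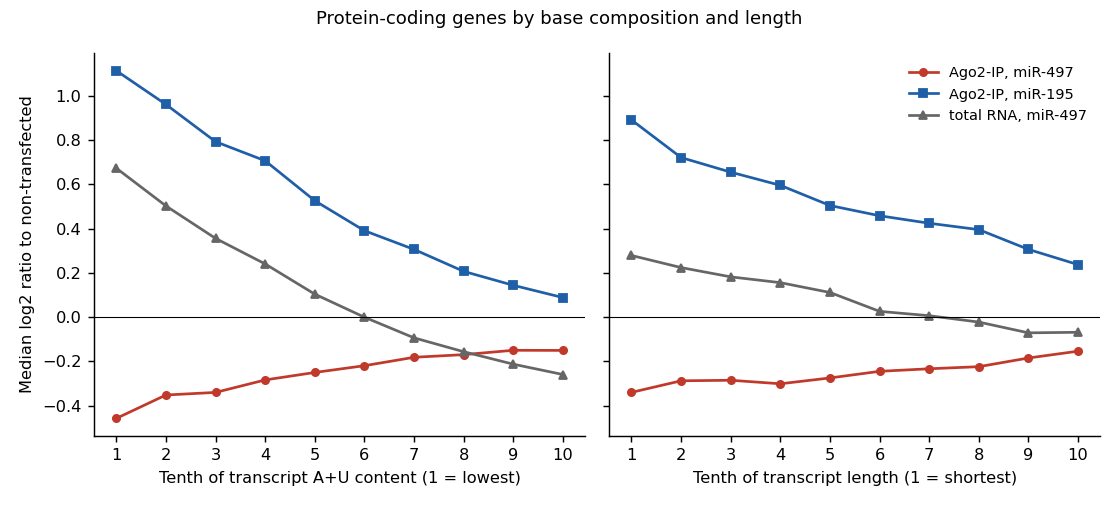
Median log2 ratio to the non-transfected library (y axis) of protein-coding genes in 10 equal groups of transcript A+U content (left) and transcript length (right), for Ago2-IP with *miR-497* (red circles), Ago2-IP with *miR-195* (blue squares) and total RNA with *miR-497* (grey triangles). The red line rises from -0.46 to -0.15 over A+U content, and the other lines fall.

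Medians were alike with and without the seed match of the mimic. Genes with an 8-base match in a 3′UTR had a median log2 ratio of -0.21 (719 genes), genes with a 7-base match to bases 2 to 8 one of -0.24 (2814 genes) and genes with no match of 6 bases or more one of -0.24 (6285 genes), with quartiles that overlap almost entirely. Genes with 3 or more 7-base matches had a median of -0.28 (324 genes). Of the 30 protein-coding genes at least 2-fold higher 6 held the 7-base match (20%), and of the 365 lower genes 72 did (19.7%), against 29.5% of all counted genes.

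The difference between genes with and without the 7-base match was 0.004 on the log2 scale, and -0.025 when genes were centred within bins of 3′UTR length. Matches to the seeds of other miRNAs gave differences from -0.002 for *miR-122* to 0.063 for *miR-192*, and after the same centring from -0.027 for *miR-122* to 0.025 for *miR-30a*. In total RNA the 8-base genes had a median of -0.11 against 0.09 for genes with no match, but their 3′UTRs had median lengths of 3362 and 822 bases. For the 7-base match the total RNA difference was -0.093, and 0.019 after centring within bins of 3′UTR length.

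**Figure D5:**
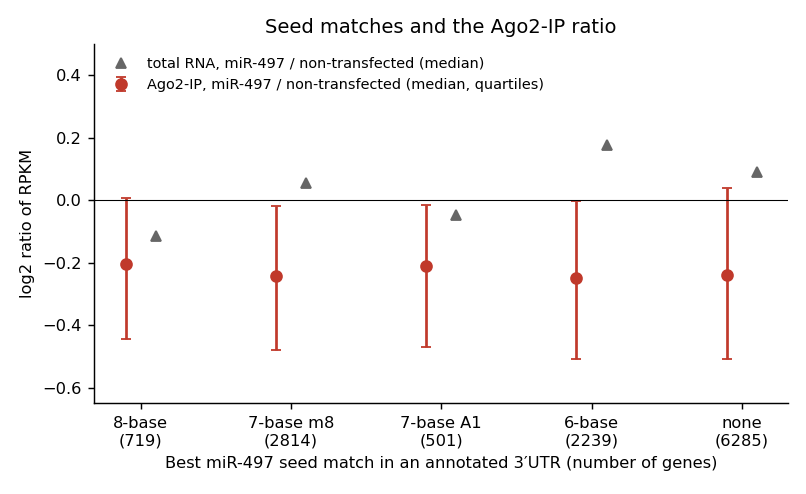
Median log2 ratio with quartiles of *miR-497* to non-transfected Ago2-IP (red) and median log2 ratio in total RNA (grey triangles), y axis, for genes grouped by their best match to the *miR-497* seed in a 3′UTR, x axis, with the number of genes in brackets. The red medians lie between -0.25 and -0.21 in all 5 groups.

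None of the 8 target genes of the study, all regulators of the G1 to S transition, differed 2-fold in Ago2-IP, and their median log2 ratio was -0.29. Of all counted genes 1.21% were at least 2-fold higher and 4.04% lower, so 0 of 8 is close to these shares. The study scored Ago2-IP divided by total RNA, and also used protein blots and 3′UTR reporter assays for these targets. The ratios here are not divided by total RNA, so they do not repeat those measures. *CCNE1*, the cyclin E1 gene, was at 8.53 and 9.74 RPKM (interval of the ratio 0.950 to 1.37) while its total RNA was at 20.97 and 10.2 RPKM. *CDK6* was at 23.7 and 17.8 RPKM in Ago2-IP (0.716 to 0.792) and at 52.3 and 25.9 RPKM in total RNA, and *CDC25A* at 8.45 and 4.81 RPKM (0.480 to 0.674) and at 18.6 and 10.9 RPKM.

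*CCND1* was at 11.4 and 11.3 RPKM, *E2F3* at 5.05 and 4.53 RPKM and *BTRC* at 3.06 and 2.67 RPKM, each with an interval that includes 1. *CDK4* was at 18.3 and 14.0 RPKM and *CCND3* at 2.28 and 1.47 RPKM, with intervals below 1. In *miR-195* Ago2-IP *CCNE1* was at 34.5 and *CCND1* at 49.4 RPKM. Among 27 counted targets known for the *miR-15*/*miR-16* family none differed 2-fold, where the shares over all counted genes were 1.21% higher and 4.04% lower. Of 32 G1 to S regulators 4 were at least 2-fold lower (1 after centring), *CCNE2* (2.52 and 1.07 RPKM) and the inhibitors *CDKN1A* (14.4 and 6.34 RPKM) and *CDKN1B* (10.8 and 4.90 RPKM) among them.

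The genes named here hold an 8-base match and had ratios above 1. The chromatin protein gene *TSPYL2* was at 1.66 and 3.98 RPKM (interval 1.79 to 3.23), the acyl-CoA synthetase gene *ACSL3* at 12.9 and 18.9 RPKM (1.33 to 1.61) and the GTPase gene *CDC42* at 3.35 and 4.82 RPKM (1.15 to 1.79). *TSPYL2* alone among the 528 such genes that reached an RPKM of 1 in both libraries was at least 2-fold higher, and 6 were at least 2-fold lower, *TNRC6B* with the lowest ratio. Of all 558 counted genes with an 8-base match 1 was at least 2-fold higher (0.179%) and 13 at least 2-fold lower (2.33%). These shares were below those of genes with no match (0.425% and 4.66%) and of all counted genes (1.21% and 4.04%).

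Across genes the Ago2-IP ratio showed almost no correlation with the total RNA ratio. Over the 13430 genes above 0 in all 4 libraries Pearson's r was 0.03 and Spearman's rho -0.003, and over the 8637 that reached an RPKM of 1 in each of the 4 they were 0.01 and -0.01. Genes are not independent replicates, and all 4 libraries are single.

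A further 599 genes were detected only with the mimic and 1105 only without it, of which 36 and 52 had an RPKM of at least 1. The library with the mimic had fewer reads, and the part of depth in this difference was not tested. Many of the highest were miRNA gene entries of a few reads. *MIR491* was at 0 and 7.82 RPKM on 0 and 7 reads, a ratio of 3.69 when 3 reads are taken as the floor of the non-transfected library. The exact interval of its ratio began at 2.28 and had no upper limit. *MIR3190*, with no inferred reads, was listed at 0 and 23.5 RPKM. *MIR1307* was listed at 8.49 RPKM without the mimic and 0 with it. *RPL21*, a ribosomal protein gene with many processed copies, was at 11.5 and 0 RPKM on 6 and 0 reads. Of 799 miRNA gene entries 75 were counted, 11 at least 2-fold higher and 7 lower. Libraries of this kind do not measure mature miRNAs, so they carry no value for the mimic itself.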

How the data were processed

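The 6 libraries, 1 per group, were grouped from the sample labels. Single reads of 36 bases were aligned by the authors (ELANDv2, hg19) and turned into RPKM with CASAVA 1.7, and the deposited RPKM values were used without further normalization. The gene annotation and strand are not given in the sources used here, nor which libraries had poly-A selection. RPKM were averaged for 28 symbols listed more than once, and 0 columns lacked a sample. The log2 ratio was formed without a pseudocount for genes above 0 in both libraries, and a gene was called at a ratio of at least 2 or its inverse where 1 library reached an RPKM of 1. No test was possible with 1 library per group.

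Whole reads were inferred from RPKM steps for 13998 of 15487 lines above 0 in at least 3 libraries (90.4%), with lengths of up to 20000 bases, and kept for 13078 genes whose implied length was at most 1.5 times the longest annotated transcript. Intervals are exact Clopper-Pearson intervals of 95% and cover counting error only, since PCR copies are not independent. Genes matched GENCODE 44 on GRCh37 directly (18208 symbols) or through a unique synonym (2278 symbols), and 1377 were unmatched. Transcript length and A+U content are those of the canonical transcript, and seed matches were searched in every 3′UTR of protein-coding transcripts. A small RNA was placed in a surrounding gene only where 1 annotated copy existed.

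Single genes were named by rule, as the highest and lowest ratios at several minimum levels, the largest differences in RPKM, the highest levels at 0 in the other library, the study's targets and the extremes and highest levels of each list. Not all of the 135 are named in the text. Other genes given as list examples (*TMEM107*, *TNRC6C*, *DICER1*, *EIF2C1*, *MATR3*, *RPS3*, *EIF4G2*, *RNU4ATAC*, *HIST1H4C*, *PLK1*, *CDC25C*, the GINS genes, *EGR1*, *MYC*, *FOXA1*, *HMGCS1*, *CDKN1B*) were picked with their values in view. The members and lists were chosen with earlier results of these data known. Procedures were tested on simulated data. Python 3.11.15, numpy, pandas, scipy and matplotlib were used. Results for some genes are not reported here.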

Additional observations from a re-analysis of the deposited data

Results flagged for a closer look

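For 11 of the named genes the *miR-497* Ago2-IP value was at least 2-fold below the non-transfected value while the *miR-195* Ago2-IP value was at least 2-fold above it. Both log2 ratios use the same non-transfected library, and the difference between the mimics was not tested. The log2 ratios with *miR-497* and then *miR-195* were -1.03 and 2.19 for *MT2A*, -1.21 and 1.57 for *IER3*, -1.87 and 1.90 for *HSPB1*, and -1.68 and 1.12 for *CEBPB*. For mitochondrial proteins they were -2.34 and 1.16 for *MRPL55*, -1.84 and 1.01 for *MRPS2*, and -1.76 and 1.35 for *NDUFB7*, a respiratory chain subunit gene. They were -1.07 and 1.46 for *RPS15*, a ribosomal protein gene, -1.23 and 1.03 for *C7orf59*, -3.55 and 1.33 for *GLTPD1*, which had 2 reads with *miR-497*, and -2.80 and 1.17 for *LOC388588*. The median of all genes was -0.23 with *miR-497* and 0.48 with *miR-195*, so the offset between the 2 libraries lies in the same direction.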

How the results depend on the processing

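No paired analysis was possible because each condition had 1 library. Leaving out a library was not possible for the same reason. The share of counted genes at least 2-fold higher was 1.21% (119 genes) and became 3.48% (483) with no minimum RPKM, 0.847% (76) when both libraries had to reach an RPKM of 1 and 0.740% (73) where the counting interval also had to lie above 1. Centring on A+U content covered protein-coding genes only, of which 31 of 9161 were higher, against 30 as deposited. Under the other alternatives run the count stayed within 1.5 times. The share at least 2-fold lower was 4.04% (398 genes) and became 1.38% (137) with a pseudocount of 1, 6.27% (870) with no minimum and 2.27% (204) when both libraries had to reach an RPKM of 1. It was 1.96% (193) after division by the median ratio, 1.74% (172) with both libraries scaled to the same sum without structural RNAs, 1.98% with a trimmed mean of log ratios and 11.3% (1102) after division by the total RNA ratio. The higher genes were 23.0% of all called genes as deposited and 47.0%, 50.9% and 46.6% under the 3 scalings. The median log2 ratio of all genes was -0.12 with a pseudocount of 1 and 0.028 with the same-sum scaling, the opposite sign. The C/D snoRNA median was 0.37 after division by the median ratio, and the H/ACA median was 1.22 there, 0.78 with a pseudocount of 1 and 0.87 after division by the total RNA ratio. The log2 ratio of *RPPH1* turned from 1.23 to -2.54 after division by the total RNA ratio, in which its RPKM was also higher. The difference between genes with and without the TGCTGCT match stayed within 0.1 under every alternative run. This limit does not cover the 8-base match taken alone. Genes with an 8-base match had medians of -0.21 in Ago2-IP and -0.11 in total RNA. Genes with no match had -0.24 and 0.09, so the 2 groups lay further apart in total RNA. Centring on A+U content was added after the values had been seen. Causes of these shifts, beyond the construction of each setting, were not tested. Genes of a few reads, mainly short RNAs and those under an RPKM of 2, are limited by depth.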
